A study of Rattus norvegicus with 134 samples.

Results

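The livers of 6 heat-stressed rats, taken at the maximum core temperature (T_c,max), were compared with the livers of 6 control rats of the same time point. These 12 libraries were chosen from the 77 small RNA libraries of the deposited table by their labels: tissue liver, title time code 03, and treatment Heat or Control. The study heated Fischer 344 rats and sequenced small RNA of the heart, kidney, liver and lung at T_c,max and at later times of recovery. The heat-stressed rats (numbers 280 to 285) spent a day in an incubator at 22 °C and were then heated at 37.0 °C until the core temperature was 41.8 °C. The control rats (numbers 288, 289 and 291 to 294) stayed in normal housing and, by the sample labels, never entered the incubator, whereas the methods of the study place controls in an incubator at room temperature. Heat and the incubator therefore cannot be told apart by the labels. The labels give no other treatment, and each library is 1 piece of whole liver from 1 rat. In a whole liver, fewer cells of a type and less RNA per cell cannot be told apart.

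MicroRNA (miRNA) are short RNA cut from a hairpin precursor, and each arm of the hairpin can give a mature miRNA, named 5p or 3p. The mature strand guides an Argonaute protein to messenger RNAs, mainly through its seed, the bases 2 to 8, and so lowers their translation and stability. In the liver, miR-122 and the miR-192 and miR-194 pair are the known hepatocyte miRNA, and miR-122 takes part in cholesterol and lipid metabolism.

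The sequences below are those on which the results turn: miR-205, which had the largest fold change, both arms of the miR-125b-2 hairpin, miR-375-3p, the most abundant names, and miR-122-5p with the name that lies opposite to it. Of the 185 names of the table, 108 were matched by name to a mature sequence of RefSeq (build GRCr8). miR-150-5p is named only. The deposited name miR-10b carries no arm. What the names without an arm, such as miR-10b, miR-21 and miR-192, count is not given in the sources used here, and they are reported as names beside the arms, not as separate miRNA. Capitals mark the seed, and each sequence runs 5′ to 3′.
miR-205: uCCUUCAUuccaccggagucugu
miR-125b-2-3p: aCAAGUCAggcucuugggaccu
miR-125b-5p: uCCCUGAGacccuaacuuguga
miR-375-3p: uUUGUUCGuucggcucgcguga
miR-22-3p: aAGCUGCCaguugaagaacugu
miR-192-5p: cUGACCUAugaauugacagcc
let-7f-5p: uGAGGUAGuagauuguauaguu
miR-122-5p: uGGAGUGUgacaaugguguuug
miR-3591: aACACCAUugucacacucca
miR-205 lies at chr13:107564588-107564610 on the minus strand. Both arms of miR-125b-2 lie on the plus strand of chromosome 11, the 5p arm at chr11:29732588-29732609 and the 3p arm at chr11:29732627-29732648. miR-375-3p lies at chr9:83906591-83906612 on the minus strand. These 4 sequences have 4 different seeds. The seed of let-7f-5p, in contrast, was held by 8 names of the table, all let-7 names and miR-98-5p.

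The liver libraries were shallow. Total reads, recovered from the step of the deposited values, were 126700 to 277662 per heat library (mean 204198 ± 58415, SD, n = 6) and 141554 to 302012 per control library (mean 189678 ± 59680, SD, n = 6). The groups overlap in depth, and the difference of the mean log2 totals was 0.10, with p = 0.671 in an exact two-sided permutation test. At the same time point the heart libraries had 237544 to 646567 reads and the kidney libraries 355221 to 1329684. A level of 3 reads corresponded to 3.56 to 4.63 on the deposited log2(CPM + 1) scale (CPM, read counts scaled to the library total) in heat libraries and to 3.45 to 4.47 in control libraries. Between 2 and 5 of the 185 names were at 0 in a heat library, and between 0 and 5 in a control library. The correlation across names of any pair of the 12 libraries was 0.951 to 0.988, a description that carries no test, and no library stood apart from the others. No library was a copy of another of its own group: over the 30 pairs of replicates within a group the lowest chi-square per degree of freedom was 3.73.

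The libraries carried the markers of the labelled tissue. miR-122-5p was at 12.4 to 12.96 in heat livers and 12.6 to 13.1 in control livers, whereas it was at 0 to 4.29 in the hearts and 0 to 6.29 in the kidneys of T_c,max. The muscle miRNA miR-1-3p was at 0 to 2.92 in heat livers and 0 to 3.40 in control livers, with 0 to 2 reads, and was at 8.69 to 9.91 in the hearts. By mean level miR-122-5p ranked 24th of 185 names in these livers, behind names such as miR-22-3p, which ranked 1st, and miR-192-5p, which ranked 2nd. miR-192-5p and miR-194-5p were not particular to the liver, as they ranked 4th and 46th of 185 names in the kidneys.

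No miRNA name tested here passed the test for a heat effect in the liver at T_c,max. The study itself reported 1 differentially expressed liver miRNA at this time, from a count model over more names than the deposited table holds. limma's treat test asks for a change beyond a rise of 25.0%, or the equal fall on the log scale. At a false discovery rate (FDR) of 0.05 it called 0 of 176 names (0.0%), and the smallest adjusted p was 0.373. At an unadjusted p under 0.05 the same test gave 2 names (1.14%), miR-125b-2-3p and miR-205. With no fold cutoff, limma gave 5 names at an unadjusted p under 0.05 (2.84%) and 1 name at an FDR of 0.05 (0.568%), miR-125b-2-3p, lower in heat livers. voom on the recovered reads called 0 names and gave 3 at an unadjusted p under 0.05. Exact two-sided permutation tests gave 6 names under 0.05 and 0 after Benjamini-Hochberg adjustment, where the smallest p that 6 against 6 rats allow is 0.00216. With 176 names, a name alone at that p has an adjusted p of 0.381. The adjusted permutation test could therefore not call a lone name, whatever its effect. The groups did not overlap for 1 of 176 names with heat lower (0.568%), again miR-125b-2-3p, and for 0 names with heat higher.

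**Figure D1:**
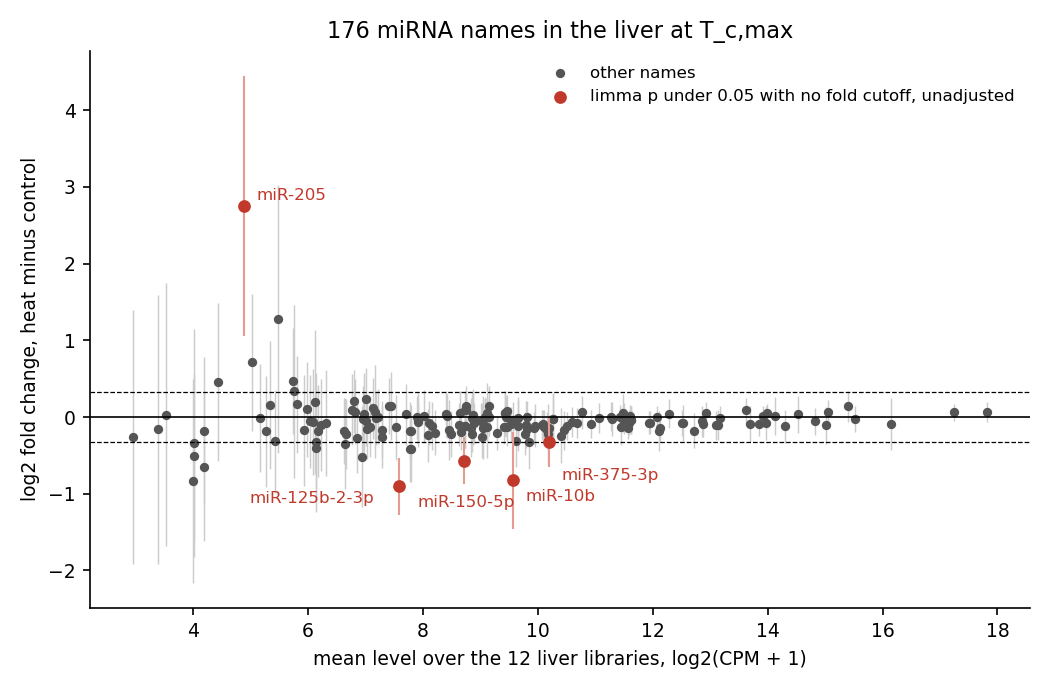
Log2 fold change (heat minus control) of 176 names against the mean log2(CPM + 1) level over the 12 liver libraries, with 95% intervals from limma; dashed lines mark the fold cutoff of the treat test. miR-205 stands at 2.75 with a wide interval, miR-125b-2-3p at -0.90, and names at higher levels lie close to 0.

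The fold changes were small for most names. The log2 fold change was under 0.25 in size for 149 of 176 names, over 0.5 for 10 names and over 1 for 2 names, miR-205 and miR-668. More names were lower in heat livers than higher, 122 against 54 (69.3% lower), with a median of -0.08 and quartiles of -0.16 and 0.02. That share depends on the scaling: it was 53.4% under median-ratio scaling and 56.8% under trimmed-mean scaling, with medians of -0.01 and -0.03. The spread between rats was like in both groups, with a median SD of 0.22 in heat livers and 0.24 in control livers, and was larger in heat livers for 77 of 176 names.

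The intervals limit the size of a heat effect. The 95% interval of the log2 fold change lay within 1 on either side of 0, a fold change of 2, for 156 of 176 names (88.6%), and within 0.5 for 110 names. The precision followed the reads. The 26 names with a mean of at least 1000 reads had a median standard error of 0.09, the 65 names between 100 and 1000 reads 0.11, the 71 names between 10 and 100 reads 0.19, and the 14 names under 10 reads 0.47. For all of the 26 most abundant names a change of 2-fold lay outside the interval, against 4 of the 14 names with the fewest reads.

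miR-205, an epithelial miRNA known to repress the ZEB transcription factors together with the miR-200 family, was measured at 7.57, 7.51, 7.10, 5.55, 4.92 and 4.90 in the heat livers of rats 280 to 285, in that order. In the control livers of rats 288, 289, 291, 292, 293 and 294 it was at 3.83, 2.53, 5.45, 5.32, 0 and 3.92. All 6 heat livers were above the control mean and 4 of 6 above every control, but the groups overlapped. These levels rest on 24, 34, 33, 7, 7 and 8 reads in the heat livers and on 4, 1, 7, 6, 0 and 2 reads in the control livers, so that most control values lay near the level of 3 reads. The 3 heat livers at 7.10 or more had 126700 to 242919 total reads, and the other 3 had 152178 to 277662. In CPM it averaged 102 ± 76.0 in heat livers and 18.9 ± 17.8 in control livers (SD, n = 6 each), a ratio of 5.37. The log2 fold change was 2.75 (standard error 0.80, 95% interval 1.06 to 4.44), with an adjusted p of 0.390 from limma's treat test and an exact permutation p of 0.0173, or 0.831 after adjustment over all 176 names. miR-205 reached 5 reads in all heat livers and not in all control livers, 1 of 4 such names, while 156 names reached it in both groups. With 1 rat left out at a time its log2 fold change ranged from 2.05, without control rat 293 at 0 reads, to 3.14. The single control liver of the 24 h time point had 3.83.

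miR-205 is also a marker of stratified epithelium, together with miR-203, a miRNA of differentiating skin cells. The other 5 names of that list had no call and fold changes near or below 0. miR-203a and miR-203b, which differed by at most 2.13% from each other in any library and may share reads, had log2 fold changes of -0.42 and -0.41. miR-203a-3p was at -0.02, miR-203b-3p at -0.19 and miR-203b-5p at 0.10. The summed level of the 6 names was 578 to 881 CPM in heat livers and 500 to 1062 CPM in control livers. The miR-200 family, held with other duct markers in a list of 6 names, had 1 name above 0 and 5 below, with a median of -0.26 and a range of -0.51 to 0.16. Whether other tissue entered the liver pieces was not tested beyond these values.

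miR-125b-2-3p, the 3p arm of one of the hairpins that give miR-125b, was at 7.08, 7.38, 7.30, 7.19, 6.73 and 7.14 in the heat livers and at 7.67, 8.26, 8.49, 8.34, 7.68 and 7.78 in the control livers. Every heat liver was below every control liver. The levels rest on 17 to 64 reads per library, and in CPM they averaged 141 ± 21.0 in heat livers and 269 ± 68.7 in control livers (SD, n = 6 each). The log2 fold change was -0.90 (standard error 0.18, 95% interval -1.27 to -0.53). limma gave an adjusted p of 0.373 in the treat test and of 0.0146 against no change. The exact permutation p was 0.00216, the smallest possible, or 0.381 after adjustment over all names. A lone name at the smallest p cannot pass that adjustment, so the adjusted permutation value decides nothing here. With 1 rat left out at a time the fold change ranged from -0.98 to -0.81. The 24 h control liver was at 8.79, above all 12.

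The 5p arm of the same hairpin had nearly equal levels in both groups. miR-125b-5p, which shares its sequence with the product of another hairpin, was at 9.95 to 10.38 (median 10.27) in heat livers and 9.68 to 10.89 (median 10.18) in control livers, and its log2 fold change was -0.02 (standard error 0.16). Its values were within 1.75% of those of miR-3588, which lies opposite to it on the minus strand at the same bases, so that these names may share reads. The log2 ratio of the 3p to the 5p arm was -3.22 to -2.998 in heat livers and -2.94 to -1.57 in control livers, a difference of -0.88 with no overlap (exact permutation p = 0.00216). This ratio was formed after the values had been seen and holds the same 3p reads, so that it is no further support. The neighbours of the hairpin on chromosome 11, miR-99a and let-7c-1, which lie 45196 and 44476 bases before it on the same strand, were near 0. In log2 fold change, with standard errors, miR-99a-5p was at -0.01 (0.13), let-7c-5p at -0.08 (0.11) and let-7c-1 at -0.17 (0.11). Over the list of miR-125, miR-99 and miR-100, 0 of 6 names passed, 1 was above 0 and 5 below, with a median of -0.06. Under median-ratio and under trimmed-mean scaling 3 were above 0 and 3 below, with medians of 0.002 and -0.02.

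**Figure D2:**
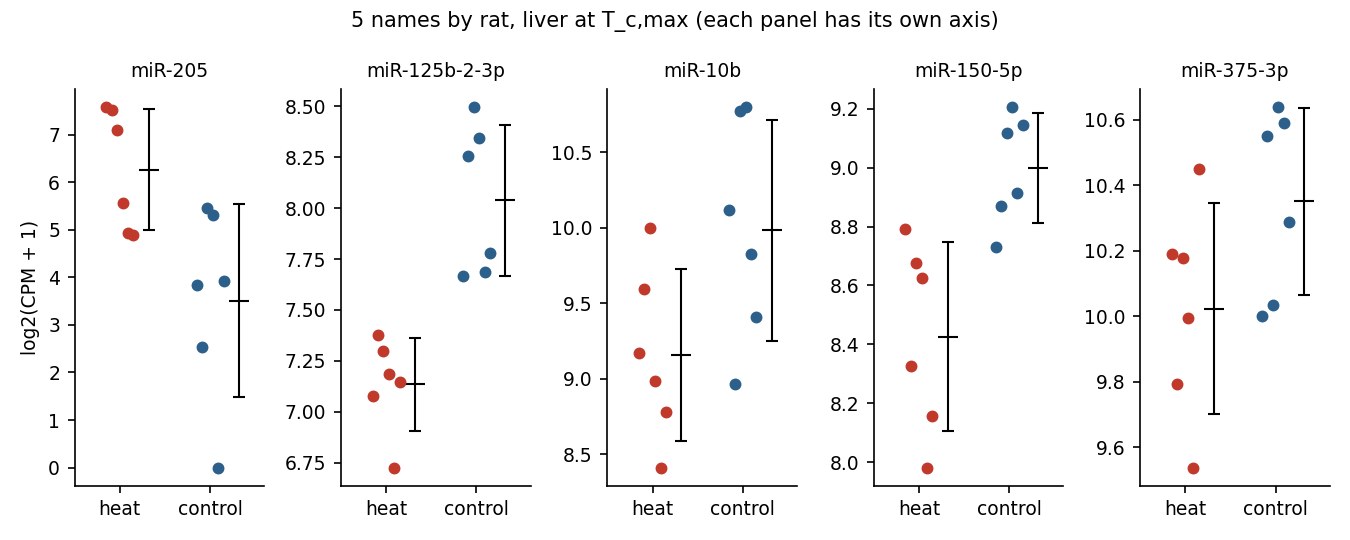
Levels in log2(CPM + 1) of the 5 names with an unadjusted limma p under 0.05 against no change, by rat, with the mean and SD of 6 heat and 6 control livers at T_c,max. The groups are apart only for miR-125b-2-3p, and miR-205 is at 0 in 1 control liver.

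3 further names had an unadjusted p under 0.05 against no change, all lower in heat livers, and none passed an adjusted test. miR-150-5p, a miRNA of mature lymphocytes that represses Myb, was at 7.98 to 8.79 (median 8.48) in heat livers and at 8.73 to 9.21 (median 9.02) in control livers. 5 of 6 heat livers were below every control. Its log2 fold change was -0.57 (standard error 0.14), with an adjusted p of 1.0 in the treat test and 0.0922 against no change, and an exact permutation p of 0.00433, or 0.381 after adjustment. miR-10b, encoded in a Hox gene cluster, was at 8.41 to 9.997 (median 9.08) in heat livers and at 8.97 to 10.80 (median 9.98) in control livers, which overlap widely. Its log2 fold change was -0.83 (standard error 0.30), with an adjusted p of 1.0. miR-375-3p, best known from pancreatic islets where it restrains insulin release, averaged 10.02 ± 0.32 in heat livers and 10.35 ± 0.29 in control livers (SD, n = 6 each), with 3 of 6 heat livers below every control. Its log2 fold change was -0.33 (standard error 0.15), with an adjusted p of 1.0.

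The permutation test named 3 more, miR-28-3p, miR-151-3p and miR-30e-5p, with small differences and little spread. Their log2 fold changes were -0.14, -0.15 and -0.22, and all 6 heat livers were below the control mean for each. None passed after adjustment (0.831 for each, exact permutation test). Some names had large fold changes with an interval across 0. miR-668 was at 9.29 and 8.61 in heat rats 280 and 284, at 3.56 to 5.90 in the other 4 heat livers and at 3.71 to 6.00 in control livers, a log2 fold change of 1.28 (standard error 0.83), or 0.64 without rat 280. miR-451, the main miRNA of red blood cells, had 2 to 14 reads and lay at 0.71 in log2 fold change (standard error 0.43).

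The hepatocyte miRNA had like levels in both groups. Of the 7 names of miR-122, miR-192 and miR-194, 0 passed the test, 5 were above 0 and 2 below, and the median log2 fold change was 0.06, beside -0.08 over all names. miR-122-5p was at 12.37 to 12.96 (median 12.61) in heat livers and at 12.57 to 13.10 (median 12.79) in control livers, with a log2 fold change of -0.18 (95% interval -0.41 to 0.05). miR-122-3p, the other arm, had 0.07 (-0.14 to 0.29) and the name miR-122 without an arm -0.11 (-0.30 to 0.08). Values of miR-122 and of miR-3591, which lies opposite to the hairpin of miR-122, were within 3.21% of each other in all libraries and may be the same reads. miR-194-5p comes from a hairpin on chromosome 1, where miR-192 also lies, and from another on chromosome 13. It was at 0.04 (-0.14 to 0.23) and miR-194-2 at 0.14 (-0.12 to 0.41). For each of these names a change of 2-fold lay outside the interval.

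A few miRNA held most of the reads, with like shares in both groups. The 10 most abundant names took 69.9 ± 0.89% of the reads in heat livers and 68.7 ± 0.86% in control livers (SD, n = 6 each). These are shares of the counts as deposited, in which some names may share reads. Whether the library total holds such reads more than once is not known. miR-22-3p, found in many tissues and known for its part in heart growth and lipid metabolism, took 23.7 ± 1.35% in heat livers and 22.7 ± 1.62% in control livers. miR-192-5p, which responds to p53, took 15.8 ± 0.49% in heat livers and 15.2 ± 0.62% in control livers. let-7f-5p, a member of the family that holds back proliferation, took 7.17% in heat livers and 7.71% in control livers. The log2 fold changes of these 3 were 0.07, 0.06 and -0.09, with standard errors of 0.06, 0.05 and 0.16.

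The other 7 of the most abundant names had fold changes of like size. miR-26a-5p, a brake on the cell cycle in liver, was at -0.03 in log2 fold change (standard error 0.08). miR-21, which rises in many injured tissues, had 0.14 (0.10), and the name miR-21-5p 0.03 (0.11). miR-192 without an arm had 0.06 (0.07). miR-143-3p of smooth muscle had -0.11 (0.11), miR-10a-5p -0.06 (0.08) and miR-92a-1, from the miR-17-92 cluster, -0.12 (0.10). All of these fold changes were under the spread that 6 against 6 rats leave, since each interval held 0.

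**Figure D3:**
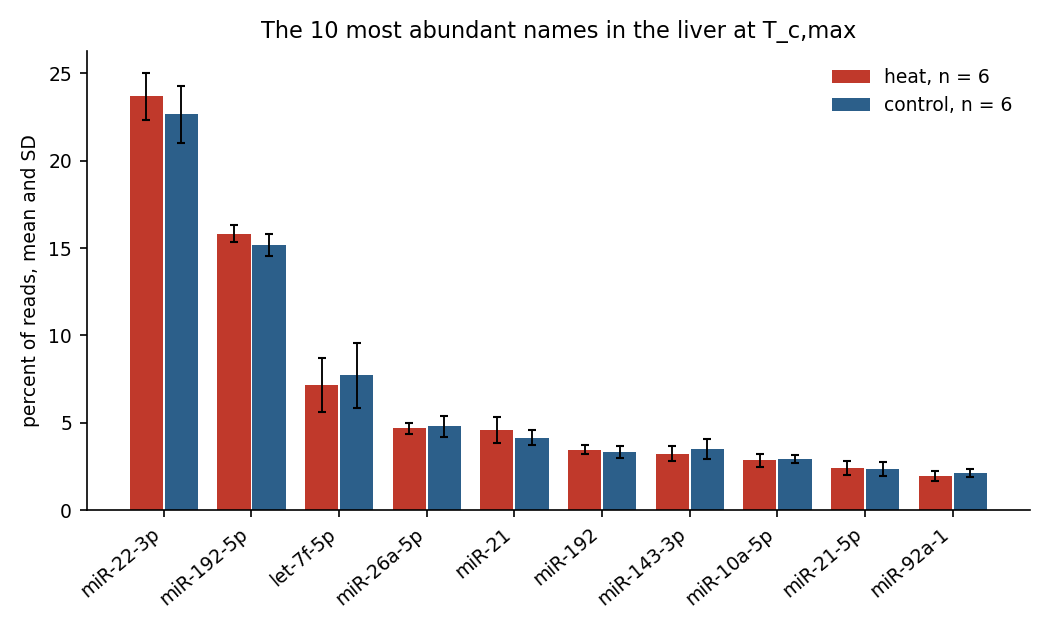
Percent of reads (mean and SD, 6 heat and 6 control livers) taken by each of the 10 most abundant names at T_c,max. Bars of heat and control livers differ by about 1 percentage point or less, with miR-22-3p at 23.7% in heat livers and 22.7% in control livers.

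Markers of other cells of the liver were measured with 0 calls in each list. Of 5 blood cell names, 1 was above 0 and 4 below (median -0.11). Beside miR-150-5p, the miR-142 names of white blood cells had log2 fold changes of -0.32, -0.01 and -0.11, and the summed level of the list was 1639 to 2314 CPM in heat livers and 1745 to 2788 CPM in control livers. The 3 endothelial names of miR-126a were at -0.07 to -0.02 (median -0.05, or 0.01 under median-ratio scaling), and the 6 stromal and smooth muscle names had a median of -0.09. Of 8 striated muscle names 4 passed the filter on reads. miR-133a and miR-133a-3p had log2 fold changes of -0.14 and -0.18, and miR-208b and miR-499-5p of -0.83 and -0.65 (standard errors 0.63 and 0.46), both on 1 to 7 reads and kept only through the 24 h control. The 4 that did not pass had 0 to 4 reads and no common direction, with means of 4.06 in heat livers and 2.75 in control livers for miR-208a and, for miR-1-3p, 0.49 in heat livers and 2.34 in control livers. The most abundant, miR-133a, was at 8.72 to 9.19 in heat livers and 8.14 to 9.68 in control livers, against 15.1 to 16.4 in the hearts of T_c,max. Whether the share of these cells differed between groups was not tested beyond these sums.

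miRNA linked to inflammation and stress had no call. Of 8 names of miR-21, miR-146, miR-221 and miR-222, 0 passed, 4 were above 0 and 4 below, with a median of -0.01 (0.05 under median-ratio and 0.04 under trimmed-mean scaling) and a range of -0.40 to 0.45. miR-146a-5p, which is induced through NF-kB and represses TRAF6 and IRAK1, was at -0.14 (95% interval -0.52 to 0.24), and miR-146b-5p, with the same seed, at -0.05 (-0.38 to 0.28). miR-320 and miR-320-3p had 5 to 21 and 5 to 14 reads and log2 fold changes of 0.16 (standard error 0.30) and -0.32 (0.32), so that a change could only have been seen if it was large. No name of miR-155 or miR-210, a miRNA of hypoxia, was in the table.

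The large families also showed 0 calls. Of 16 let-7 and miR-98 names 3 were above 0 and 13 below, with a median of -0.09, and under median-ratio scaling 6 above and 10 below. The lowest was let-7e at -0.51 (standard error 0.31), a value that was -0.20 without control rat 291, at 8.76, since the other control livers were at 6.42 to 7.39. Together the 8 names with the seed of let-7f-5p took 9.75% of the reads in heat livers and 10.5% in control livers. Of 13 miR-30 names 4 were above 0 and 9 below (median -0.07), and of 9 names of miR-23, miR-27 and miR-24 2 were above 0 and 7 below (median -0.10). All 5 names of the miR-15 and miR-16 list were above 0, between 0.02 and 0.14, with a median of 0.06. Under median-ratio scaling the medians of let-7 and of miR-15 and miR-16 were -0.03 and 0.12. The medians of let-7, miR-30 and the miR-23 list lie close to that of all names, -0.08, and that of miR-15 and miR-16 lies above its upper quartile, 0.02.

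**Figure D4:**
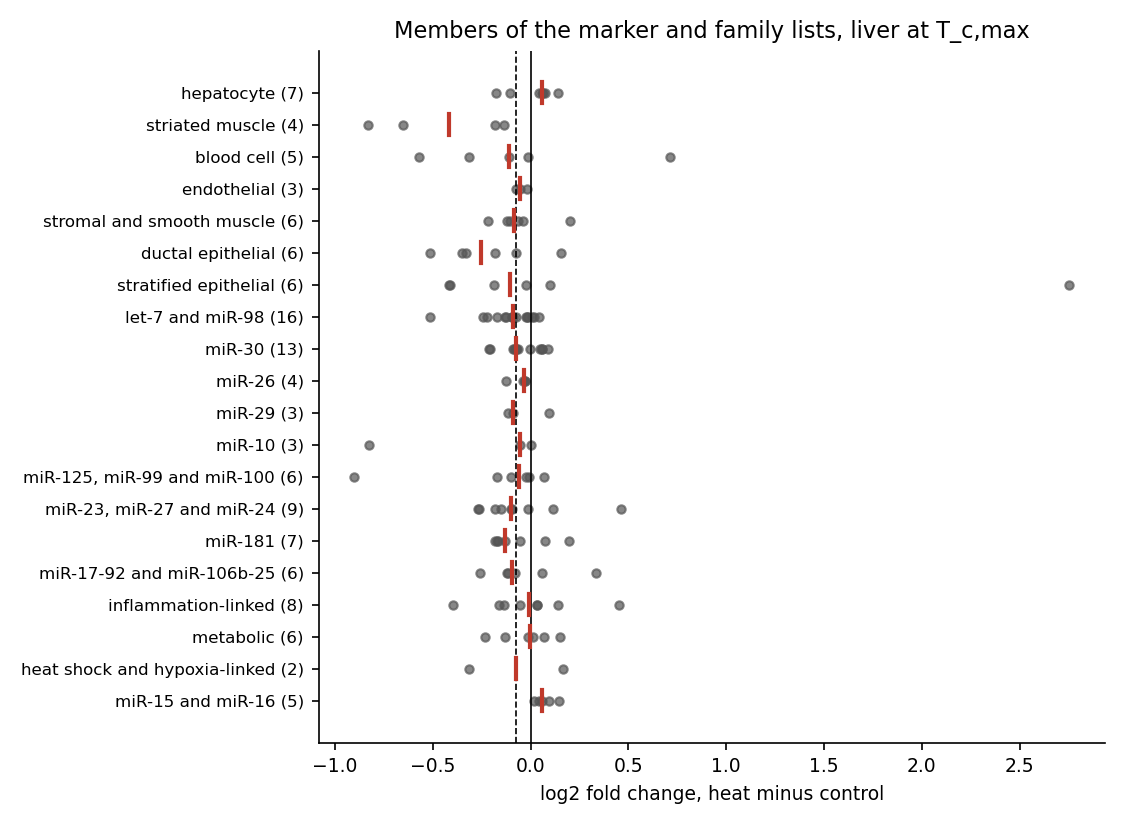
Log2 fold changes (heat minus control) of the tested names of 20 marker and family lists in the liver at T_c,max, with the median of each list in red and the median of all 176 names dashed; numbers of names stand in parentheses. Medians of the lists lie between -0.42 (striated muscle, 4 names) and 0.06, and miR-205 at 2.75 is the one far member.

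The heat effect in the liver was set against that in other organs of the same time point, from the same rats where both were measured. The difference of the heat effects passed limma's treat test for 0 of 178 names between liver and heart (0.0%) and for 0 of 176 names between liver and kidney (0.0%). At an unadjusted p under 0.05 treat gave 4 names for the heart and 2 for the kidney, and against no change 5 (2.81%) and 31 (17.6%). Against no change 1 name differed between liver and kidney at an FDR of 0.05 (adjusted p = 0.000296), miR-126a-5p, an arm of the endothelial miRNA that supports vessel integrity. miR-126a-5p was at 13.02 to 13.32 in heat livers and 12.94 to 13.29 in control livers, which overlap. It was at 11.88 to 12.36 in heat kidneys and 12.75 to 13.06 in control kidneys, which do not. Of 171 kidney names, 19 were lower in heat without overlap (11.1%) and 8 higher (4.68%), so that this is not particular to miR-126a-5p. The kidney effect of miR-126a-5p in limma, fitted over all 29 kidney libraries of every time point, was -0.81 (standard error 0.79, adjusted p = 0.999 in the treat test). That standard error pools the spread of all time points and does not measure the spread at T_c,max alone. The SDs at T_c,max were 0.21 in heat kidneys and 0.12 in control kidneys. Fitted over the libraries of T_c,max alone, the liver minus kidney difference of the log2 fold changes was 0.80 (standard error 0.12), with an adjusted p of 0.0824 in the treat test and of 0.0333 under median-ratio scaling.

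Every heat kidney, too, was below every control kidney for miR-125b-2-3p. It was at 6.51 to 6.71 in the 5 heat kidneys and at 6.85 to 7.19 in the 5 control kidneys, a log2 fold change of -0.44. The exact permutation p was 0.00794, the smallest that 5 against 5 allow, or 0.0503 after adjustment over the kidney names. In limma, fitted over all 29 kidney libraries of every time point, this effect did not pass the treat test (standard error 0.58, adjusted p = 0.999). That standard error pools the spread of all time points and does not measure the spread at T_c,max alone. The SDs of miR-125b-2-3p at T_c,max were 0.09 in heat kidneys and 0.13 in control kidneys. The kidney groups did not overlap for 19 of 171 names with heat lower (11.1%) and for 8 with heat higher (4.68%), so that this is not particular to miR-125b-2-3p. Heat kidneys also had 355221 to 1247747 reads (median 595986) and control kidneys 680596 to 1329684 (median 1137894), and the part of depth in these kidney results was not tested. In the hearts it was at 5.60 to 8.20 in 6 heat rats and at 7.02 to 8.05 in 5 control rats, a log2 fold change of -0.46 with p = 0.381 (exact permutation). The hearts had 0 of 159 names without overlap in either direction (0.0%). The liver effect of miR-125b-2-3p differed from the kidney effect by -0.46 (standard error 0.23) and from the heart effect by -0.44 (0.46), with adjusted p-values of 0.999 and 0.998 from limma's treat test. The organs came from the same rats, so that these are no separate animals.

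For miR-205 the heat and control kidneys overlapped widely, with SDs of 2.21 and 2.87 over 5 rats each. Its heat effect in the kidneys is therefore poorly known. In the kidneys it was at 4.87 to 10.43 in heat rats and at 3.42 to 10.30 in control rats, a log2 fold change of -0.05 (p = 0.937, exact permutation), and in the hearts it was at 0 to 3.24 in heat rats and at 2.57 to 3.54 in control rats. A level of 3 reads corresponded to 2.50 to 3.77 in these hearts, and miR-205 did not pass the read filter of the heart's own fit. The liver effect exceeded the heart effect by 3.47 (standard error 1.14) and the kidney effect by 2.80 (1.62) on the log2 scale, with adjusted p-values of 0.998 and 0.999 from limma's treat test. The heart difference thus rests on heart levels of few reads. The kidney level was higher than the liver level in most rats. Heat rat 284, with the highest kidney level (10.43), had one of the lowest heat liver levels (4.92). Heat rat 282, with the lowest heat kidney level (4.87), had 7.10 in the liver. Heat rat 280, in contrast, was high in both organs, at 10.05 in the kidney and 7.57 in the liver. Whether liver and kidney levels of miR-205 go together by rat was not tested.

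**Figure D5:**
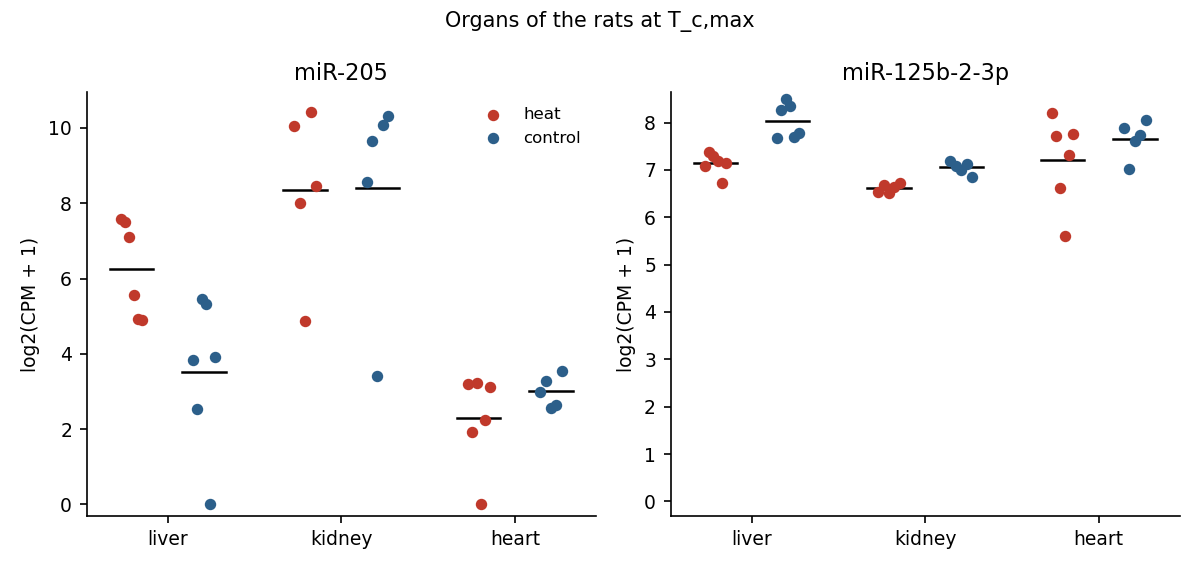
Levels in log2(CPM + 1) of miR-205 and miR-125b-2-3p by rat in liver, kidney and heart at T_c,max, with heat left of control and a line at each mean. miR-125b-2-3p lies lower in all heat livers (6.73 to 7.38) than in all control livers (7.67 to 8.49) and likewise in the kidneys; miR-205 varies widely in the kidneys of both groups.

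miR-10b and miR-150-5p were likewise set beside the other organs. miR-10b was the most abundant name of the kidneys, at 17.4 to 17.7 in heat kidneys and 17.4 to 17.8 in control kidneys, and ranked 72nd in the livers. Its log2 fold change was -0.05 in the kidneys and -0.22 in the hearts, where the groups overlap. miR-150-5p was at 7.73 to 8.80 in heat kidneys and 8.05 to 9.02 in control kidneys, a log2 fold change of -0.34, and at -0.40 in the hearts. For both names the difference of the heat effect between liver and either organ did not pass limma's treat test, with adjusted p-values of 0.998 or more. Liver minus kidney was -0.77 (standard error 0.38) for miR-10b and -0.23 (0.26) for miR-150-5p. Liver minus heart was -0.60 (0.61) and -0.18 (0.50), so that a difference is not excluded.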

How the data were processed

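The authors built TruSeq small RNA libraries, trimmed the reads with cutadapt 2.6, kept perfect matches to rat miRNA of miRBase and deposited log2(CPM + 1) values for 185 names, 105 with an arm and 80 without. Of the 134 labelled samples, 77 libraries held values, and 13 were livers. No column of values was left over (0 unused columns). Low values of the liver libraries were whole multiples of 1 read within 0.05 of a read in 499 of 499 cases (100.0%), and the recovered reads served for depth, the filter and voom. Libraries were pooled on 1 lane per tissue, so that organ and lane cannot be told apart.

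limma 3.58.1 in R 4.3.3 fitted the deposited values of all 13 livers, the 24 h control as its own group, with a trend in the spread. treat tested against a fold of 1.25 with Benjamini-Hochberg adjustment, and standard errors and intervals come from the same fit. A name was kept where every library of some group held 5 reads or more, 176 names; without the 24 h control, which alone let 15 names pass, 161. The names, lists and tests were chosen with earlier results of these data known. Named were the names with an unadjusted p under 0.05 against no change, up to 8 in each direction, the 10 most abundant, the hepatocyte names and those of miR-205, miR-203, miR-21, miR-146 and miR-320; the others named (miR-28-3p, miR-151-3p, miR-30e-5p, miR-668, miR-451, let-7e, miR-126a-5p, the muscle names and the neighbours of miR-125b-2) were chosen after their values were seen. Rat numbers pair the organs of 1 animal. The median correlation of deviations from group means was 0.0665 over 11 same-rat pairs of liver and heart (0.0223 over 55 different-rat pairs) and 0.00839 over 10 of liver and kidney (0.0389 over 50). Alternatives were scaling, filters, pseudocount, voom, the rat as a block and leaving out each library. The fit was also run on simulated reads with the same extra spread between rats for every name. In the real livers the spread differed between names, so that run does not show how the fit performs on them. Tables and plots were made in Python 3.11.15 with pandas 2.3.3, numpy 2.4.6, matplotlib 3.10.9 and scipy 1.17.1.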

Additional observations from a re-analysis of the deposited data

Results flagged for a closer look

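Over 64 groups of 6 livers of the named miRNA, 3 held 1 rat far from the other 5 by Dixon's ratio, where chance gives about 1 in 20. miR-194-2 in heat rat 284 was at 8.80, and the other heat livers were at 9.19 to 9.42. miR-203b-3p in heat rat 283 was at 3.82, against 5.06 to 5.68 in the other heat livers, a level set by few reads. miR-143-3p in control rat 289 was at 14.58, and the other control livers were at 15.04 to 15.29.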

How the results depend on the processing

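The count of 0 called names was the same under 22 of 23 alternatives, leaving out each rat in turn included (0 to 0), and was 1 with no fold cutoff, miR-125b-2-3p. The count for liver minus kidney was 1 with no fold cutoff and 1 under median-ratio scaling, and 0 with the rat as a replicate block; liver minus heart stayed at 0 with the block. The block changed no call. Of 31 named values 21 kept their sign throughout, the 5 with the smallest p among them. The others lay near 0 and none was called. Under median-ratio scaling the sign changed for miR-26a-5p (0.0362), miR-10a-5p (0.0081), miR-203a-3p (0.0416) and miR-146b-5p (0.0109), under trimmed-mean scaling for miR-26a-5p (0.0188) and miR-203a-3p (0.0243), and under voom for miR-203b-5p (-0.0434); the cause was not tested. With 1 rat left out the ranges crossed 0 for let-7f-5p (-0.218 to 0.0162), miR-26a-5p (-0.0651 to 0.0338), miR-21-5p (-0.0335 to 0.104), miR-194-5p (-0.004 to 0.0959), miR-203a-3p (-0.12 to 0.0923), miR-203b-3p (-0.288 to 0.0839), miR-203b-5p (-0.0774 to 0.242) and miR-146a (-0.06 to 0.122). Depth limits the 71 names of 10 to 100 mean reads and the 14 names under 10. The control values of miR-205 rest on 0 to 7 reads.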

Other observations

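12 pairs of names had values within 10% of each other in all 12 livers. Among them were miR-30c-1 and miR-30c-2 (largest difference 0.46%), miR-191a and miR-191b (0.55%), miR-31a and miR-31b (1.96%) and miR-126a and miR-126b (2.22%). 

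Among tested names with at least 10 reads in some liver, the spread between rats was widest for miR-668 and miR-205, with pooled SDs of 1.80 and 1.69 on the log2 scale, and next for miR-127-3p (1.34, at most 12 reads) and miR-17-1 (1.12, at most 65 reads).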
